A study of Mus musculus with 8 samples.

Results

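The TRIM (tripartite motif) genes encode one of the largest families of ubiquitin ligases, and they were read here in the RNA of Lewis Lung Carcinoma (LLC) tumors with and without the gene Ago2 in the cancer cells. Members were chosen by name: every row of the count table whose Ensembl identifier maps to a protein-coding mouse gene called Trim plus a number and at most 1 letter, apart from Trim28 and Trim71. Of 66 such genes among 55487 identifiers, 47 had a summed count of 80 or more over the 8 libraries. The nearest gene inside that limit was Trim55 with 92 counts, and the nearest outside were Trim67 with 53 and Trim10 with 52. The other 17 genes under the limit held between 0 and 18 counts, and 8 of the 19 (Trim42, Trim43b, Trim43c, Trim50, Trim52, Trim60, Trim61 and Trim75) held none. A filter on low counts then left 46 members for testing, since Trim55 did not pass it.

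The tumors grew for 12 days under the skin of C57BL/6J mice, 4 mice with wild-type LLC cells and 4 with ΔAgo2 (Ago2 knock-out) LLC cells, and no treatment is listed for either group. LLC is an established mouse lung carcinoma line. Per the study's methods the mice were females bought at an age of 6 to 8 weeks, and the ΔAgo2 cells were made with a lentiviral CRISPR guide and puromycin selection, with 1 clone used for engraftment. The host cells of every tumor keep Ago2, and a difference between 1 clone and its parental line cannot be told apart from the effect of the gene. All 8 libraries carry the same batch label, and each is named as a biological replicate, so the spread below is between mice.

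A typical TRIM protein joins a RING domain, which hands ubiquitin from an E2 enzyme to a substrate, to B-box and coiled-coil domains and to a variable end that picks the substrate. Some members, among them Trim14, Trim16, Trim29, Trim44 and Trim66, lack the RING. Many TRIM genes are induced by interferon and act in antiviral defense: Trim25 ubiquitinates the RNA sensor RIG-I (Ddx58), Trim21 is a cytosolic antibody receptor, and the Trim5, Trim12 and Trim30 genes of mouse chromosome 7 are relatives of the primate retrovirus restriction factor TRIM5. Others work on chromatin, microtubules, membranes or the muscle sarcomere.

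The chromosome 7 antiviral genes lie side by side, from Trim6 to Trim30d at chr7:104218793-104507849 (GRCm38, GENCODE M21), and several carry the core letters of the interferon-stimulated response element close to their start sites. The RefSeq promoter table for GRCm38.p6, which spans 250 bases before to 50 bases after each start site, held 36 of the 47 members. The core (GAAA, any 2 bases, GAAA) was searched on both strands and occurred in 9 of those 36 genes (25.0%), against 3.99% of all 27025 genes in the table and 3.44% of its 32851 promoters. It was found in 6 of the 9 chromosome 7 cluster members, in Trim21 and Trim26 of the sensing members, and in Trim2. Trim2 has several start sites in the table, and only the innermost holds the core. The gamma-activated site core TTCNNNGAA, which reads the same on both strands, was present in 3 of 36 members (Trim30c, Trim45 and Trim46), or 8.33%, against 9.55% of all genes in the table, and in none of the 9 genes above. These matches are letters in a window and not measured binding. The windows below are shown because 6 of the cluster members hold this core, with partly identical surroundings; Trim6, Trim30b and Trim30c do not, and the windows of Trim21, Trim26 and Trim2 are given beside them. Each is 30 bases on the gene's strand, 5′ to 3′, with the core in capitals (read as TTTC, any 2 bases, TTTC where it lies on the opposite strand).
Trim5, chr7:104288136-104288165, minus strand: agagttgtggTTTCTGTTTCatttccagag
Trim12a, chr7:104315466-104315495, minus strand: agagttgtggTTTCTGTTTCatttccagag
Trim12c, chr7:104353359-104353388, minus strand: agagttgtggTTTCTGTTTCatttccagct
Trim30a, chr7:104465210-104465239, minus strand: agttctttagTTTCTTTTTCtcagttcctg
Trim30a, inner start site, chr7:104446104-104446133, minus strand: ttgtttttagTTTCTTTTTCtcagttcctg
Trim30d, chr7:104507871-104507900, minus strand: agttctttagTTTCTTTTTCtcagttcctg
Trim34a, chr7:104244457-104244486, plus strand: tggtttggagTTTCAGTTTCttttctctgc
Trim21, chr7:102565450-102565479, minus strand: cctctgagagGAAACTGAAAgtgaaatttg
Trim26, chr17:36836976-36837005, plus strand: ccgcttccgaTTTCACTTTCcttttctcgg
Trim2, chr3:84212791-84212820, minus strand: tcagctttggTTTCCTTTTCtctaagacag

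The Trim5 and Trim12a windows were identical at 30 of 30 positions, and Trim12c shared 28 of 30 positions with both. The outer Trim30a window and that of Trim30d were also identical at 30 of 30 positions, while the Trim34a window matched those of the other cluster members at 16 to 18 positions. In Trim21 and Trim26 a second, overlapping match began 6 bases after the first. The 6 cluster genes held the core between 49 bases before the start site (Trim5) and 11 bases after it (Trim12a and Trim34a), as the map of positions shows.

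**Figure D1:**
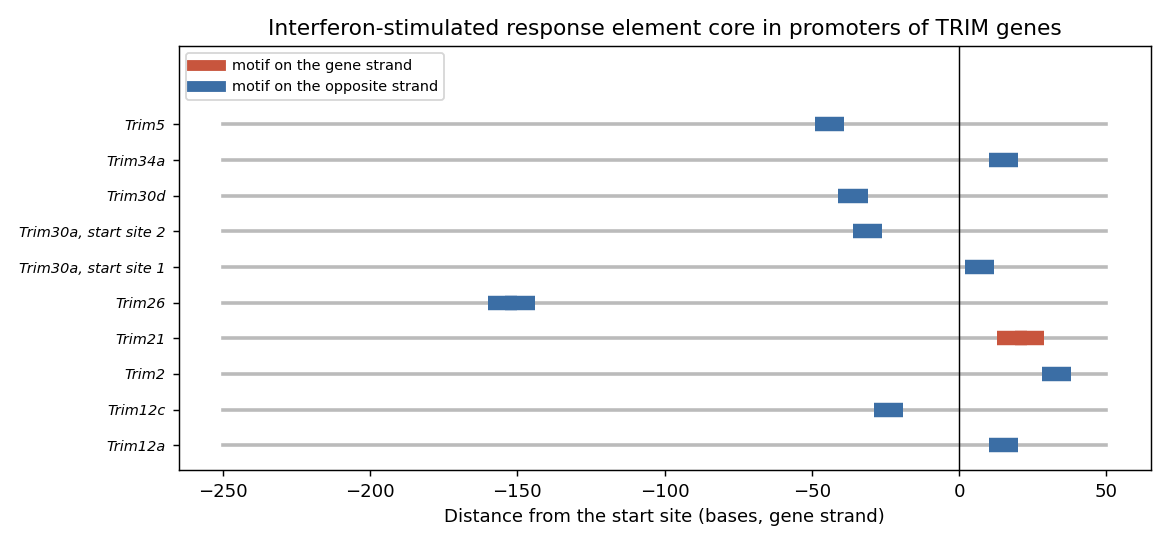
Position of the interferon-stimulated response element core in the promoters of the 9 TRIM genes that hold it; the horizontal axis is the distance from the start site in bases on the gene's strand, each grey line is 1 promoter window, and colors give the strand of the match. All matches but those of Trim26 lie within 50 bases of the start site, and those of Trim26 begin 160 and 154 bases before it.

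The depth of the libraries ranged from 7903288 counts (wild-type tumor 4) to 268564145 (ΔAgo2 tumor 4), so 3 counts correspond to between 0.43 and 0.0105 counts per 1000000 (CPM, here scaled by the TMM method). These limits cover counting error only. Ago2 itself was not lower in the tumors labelled knock-out: the wild-type group, tumors 1 to 4 in order, had 129.9, 195, 151.3 and 139 CPM and the ΔAgo2 group 118, 355, 215 and 270.1 CPM (log2 fold change 0.64 ± 0.30 SE, adjusted p = 0.205, edgeR). A count summed over the gene does not show whether it is edited and the host cells express it, so this is no check of the labels. Of the lung epithelial markers, Nkx2-1 was at 0 in all 8 libraries and Sftpb in 7, while the epithelial keratins Krt8 and Krt18 were read at 231 CPM or more. Wild-type tumor 3 stood apart in tissue markers: its summed CPM over 10 skeletal muscle markers was 4.22e+03, against 296 to 575 in the other wild-type tumors and 57.7 to 243 in the ΔAgo2 tumors.

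Across the family, 24 of the 46 tested members had a positive log2 fold change (ΔAgo2 over wild-type) and 22 a negative one, with a median of 0.10 beside 0.04 over all 16061 genes tested. Of the members, 4 passed an adjusted p of 0.05 (edgeR quasi-likelihood test, Benjamini-Hochberg over all genes tested), and all 4 were lower in ΔAgo2 tumors: Trim7, Trim46, Trim66 and Trim80. That is 4 of 46 against 2.12% of all genes tested called lower, and 3.49% called in either direction. No member was called higher, where 1.36% of all genes were. At an unadjusted p under 0.05, 11 members were higher and 7 lower, beside 13.7% and 13% of all genes. DESeq2's Wald test called 4 members higher (Trim12c, Trim24, Trim30d and Trim34a) and 6 lower (Trim54 and Trim72 beside the 4), with 6.99% and 7.17% of all genes as its background (14.2% in either direction). The limma voom fit with quality weights called 7 higher (Trim6, Trim23, Trim24, Trim25, Trim30d, Trim33 and Trim59) and 5 lower, with a background of 14.9% and 13% (27.9% in either direction). Each of Trim7, Trim46, Trim66 and Trim80 was among the lower calls of both. Without a count filter edgeR called 6 of the 47 members (3.24% of all genes), Trim24 as higher (1.7%) and Trim72 with the 4 above as lower (1.54%).

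**Figure D2:**
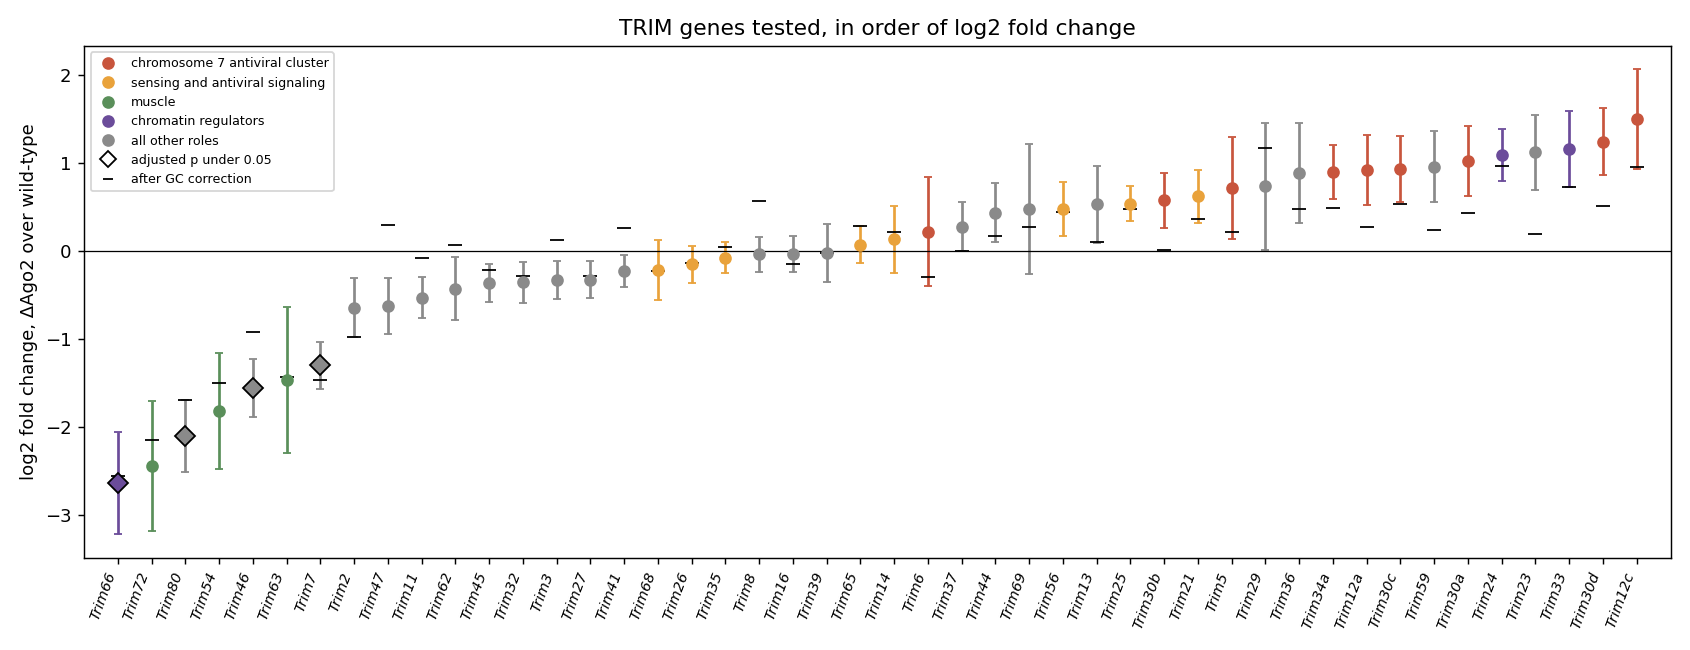
Log2 fold change of ΔAgo2 over wild-type tumors for the 46 tested TRIM genes, in order, with error bars of 1 SE (edgeR, 4 tumors per group); colors give the role list, diamonds an adjusted p under 0.05, and black dashes the value after correction for GC content. The 4 diamonds are Trim66, Trim80, Trim46 and Trim7, all below 0, and the 9 chromosome 7 cluster genes all lie above 0 before the correction.

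The genes that fell come from different branches of the family. Trim46, which organizes microtubules at the start of the axon in neurons (chr3:89234177-89246309), had 9.18, 15.7, 9.92 and 21.6 CPM across wild-type tumors 1 to 4, and 3.16, 5.05, 5.58 and 5.19 CPM across the ΔAgo2 tumors in the same order. The lowest wild-type tumor was above the highest ΔAgo2 tumor, and the fitted level fell 2.95-fold (log2 fold change -1.56 ± 0.33 SE, adjusted p = 0.033, edgeR). Of 5 nerve markers 1 was called, the neurofilament gene Nefl, also lower (0.75 to 1.43 CPM in wild-type and 0.0175 to 0.0821 CPM in ΔAgo2 tumors). What part nerve tissue has in the Trim46 level was not tested. Trim7, a ligase known for binding the glycogen primer glycogenin (chr11:48826140-48852209), had 10.7, 15.0, 8.68 and 10.9 CPM in wild-type and 3.47, 5.56, 4.92 and 4.45 CPM in ΔAgo2 tumors. Again the groups did not overlap (log2 fold change -1.30 ± 0.27, adjusted p = 0.030, edgeR).

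Trim66 and Trim80 were rare transcripts. Trim66, a RING-less relative of the chromatin regulators Trim24 and Trim33 (chr7:109449006-109508134), had 0.637, 0.715, 0.736 and 0.573 CPM in the wild-type group and 0.0205, 0.079, 0.269 and 0.102 CPM in the ΔAgo2 group. The 4 wild-type values lay close together and all above the ΔAgo2 values. Wild-type tumor 4 rested on 4 counts and ΔAgo2 tumor 1 on 1 count. Its log2 fold change of -2.63 ± 0.58 was the most negative in the family (adjusted p = 0.038, edgeR). Trim80 (chr11:115440545-115448270) had 0.618, 0.477, 0.442 and 0.573 CPM in wild-type and 0.0821, 0.149, 0.0896 and 0.14 CPM in ΔAgo2 tumors. These too were separate (log2 fold change -2.10 ± 0.41, adjusted p = 0.026, edgeR). Its value in wild-type tumor 4 rested on 4 counts, and those in ΔAgo2 tumors 1 and 3 on 4 and 3 counts.

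When tumors were left out 1 at a time, the number of members called moved with the number called among all genes. Without ΔAgo2 tumor 2, ΔAgo2 tumor 4 or wild-type tumor 2 no member was called (1.02%, 0.541% and 0.87% of all genes), and without ΔAgo2 tumor 3 or wild-type tumor 4 there was 1 call each (Trim66 and Trim80, with 0.902% and 1.61% of all genes). Leaving out ΔAgo2 tumor 1 gave 7 calls, with Trim23, Trim24 and Trim33 higher, where 11% of all genes were called. Without wild-type tumor 1 there were 3 calls (Trim7, Trim46 and Trim72, with 4.05% of all genes), and without wild-type tumor 3 the calls were again Trim7, Trim46, Trim66 and Trim80 (5.68%). In each of these 8 settings the groups stayed apart in Trim7, Trim46, Trim66 and Trim80. This was given in advance, since groups apart in all 8 tumors cannot overlap in the same CPM when a tumor is left out. For the same reason the sign of their log2 fold changes could hardly turn in these fits. The size of the change ran from -1.72 to -1.29 for Trim46 and from -1.41 to -1.13 for Trim7. It ran from -3.16 to -2.35 for Trim66 and from -2.25 to -1.98 for Trim80. After correction for GC content Trim46 was at -0.92 (adjusted p = 0.073) and Trim80 at -1.69 (adjusted p = 0.056), while Trim7 (-1.46, adjusted p = 0.010) and Trim66 (-2.56, adjusted p = 0.038) stayed called (edgeR). Annotated transcripts on the opposite strand shared 4.1% of the 100-base windows of Trim7 (Gm16170) and 3.6% of those of Trim46 (Krtcap2), so where the counting ignored strand these reads cannot be told apart.

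**Figure D3:**
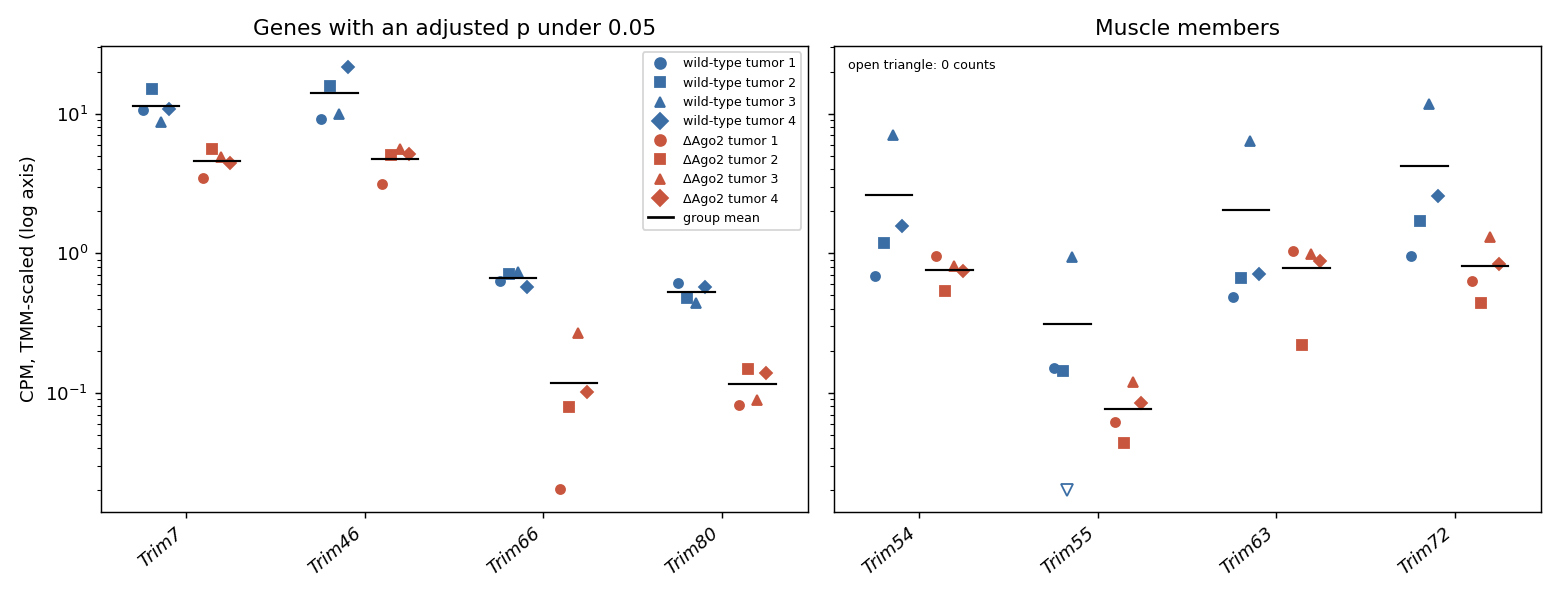
TMM-scaled CPM (log axis) in each of the 8 tumors for the 4 members with an adjusted p under 0.05 (left) and the 4 muscle members (right); blue is wild-type, red is ΔAgo2, symbols number the tumors, bars are group means and an open triangle marks 0 counts. The 4 genes on the left do not overlap between groups, and on the right wild-type tumor 3 is the highest point of each gene.

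The chromosome 7 antiviral cluster stood on the other side. All 9 tested cluster members (Trim34b, with 7 counts in all, was under the limit) had positive log2 fold changes, where 52.5% of all genes did. The values ran from 0.22 to 1.5 with a median of 0.92 beside 0.04 over all genes tested. None passed the adjusted threshold in edgeR (adjusted p from 0.0887 to 0.841). At an unadjusted p under 0.05, 6 of the 9 were higher, where 13.7% of all genes were. In 5 of the 9 every ΔAgo2 tumor was above every wild-type tumor, against 8.05% of all genes.

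Trim12c had the highest log2 fold change of the tested members. Wild-type tumors had 4.37, 2.05, 3.64 and 0.143 CPM, the last from 1 count, and ΔAgo2 tumors had 6.87, 10.9, 6.36 and 6.27 CPM. The groups did not overlap, and the log2 fold change was 1.5 ± 0.57 (adjusted p = 0.132 in edgeR, 0.036 in DESeq2). Trim30d, of the Trim30 group whose founding member Trim30a dampens Toll-like receptor signaling, had 4.18, 2.05, 2.71 and 1.43 CPM in wild-type and 4.53, 9.64, 5.28 and 5.72 CPM in ΔAgo2 tumors. Its lowest ΔAgo2 tumor was just above its highest wild-type tumor, and its log2 fold change of 1.24 ± 0.38 came with an adjusted p of 0.089 in edgeR and 0.016 in DESeq2.

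Trim30a was the most abundant gene of the cluster, with 17.6, 7.96, 13 and 3.73 CPM in wild-type and 18.4, 30.6, 20.2 and 18.1 CPM in ΔAgo2 tumors. The nearest tumors of the 2 groups, wild-type 1 and ΔAgo2 4, were 17.6 and 18.1, so the groups were apart by a small gap (log2 fold change 1.02 ± 0.40, adjusted p = 0.142, edgeR). Trim34a, which shares 21% of its 100-base windows with Trim34b and 18% with Gm47248 on the opposite strand, had 4.24, 2.67, 2.88 and 2.29 CPM in wild-type and 4.6, 7.91, 5.37 and 4.94 CPM in ΔAgo2 tumors. It too was apart (log2 fold change 0.90 ± 0.31, adjusted p = 0.109, edgeR). Trim30c, at 0.43 to 0.918 CPM in wild-type and 0.985 to 1.69 CPM in ΔAgo2 tumors, was the last of the 5 (log2 fold change 0.93 ± 0.38, adjusted p = 0.153).

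In the other 4 cluster members the groups overlapped. Trim12a ranged from 1.43 to 6.09 CPM in wild-type and from 5.32 to 7.90 CPM in ΔAgo2 tumors (log2 fold change 0.92 ± 0.39, adjusted p = 0.169, edgeR). Trim30b ranged from 1.58 to 2.70 and from 2.40 to 3.37 CPM, with a log2 fold change of 0.58 ± 0.31. Trim5 was at 0 counts in wild-type tumor 4, the shallowest, and reached 0.993 CPM in wild-type tumor 1, with 0.644 to 1.40 CPM in ΔAgo2 tumors (0.72 ± 0.58). Trim6 differed least, with 0.244 to 1.29 CPM in wild-type and 0.246 to 0.93 CPM in ΔAgo2 tumors (0.22 ± 0.62), although limma voom gave it a log2 fold change of 1.17 (adjusted p = 0.044).

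The highest tumor of each group was mostly the same one across the cluster. Wild-type tumor 1 was the highest wild-type tumor in 8 of the 9 genes and wild-type tumor 4 the lowest in 7 of 9, against 30.4% and 52.2% of the 46 tested TRIM members and 18.7% and 36% of all genes tested. Among ΔAgo2 tumors, tumor 2 was the highest in 8 of 9, against 65.2% of the tested TRIM members and 35.4% of all genes, and the lowest was tumor 4 in 5 genes and tumor 1 in 4. The genes are neighbors, partly share sequence (11.7% of the 100-base windows of Trim5 occur in other genes, chiefly Trim12c, and 4.41% of those of Trim30a occur in Trim30d) and were read in the same libraries, so they are not independent observations.

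The height of the difference depended on the correction for GC content. With GC content entered as a trend per library the cluster median fell to 0.43, 8 of 9 genes stayed positive and Trim6 was at -0.30. The signs of all 9 held with DESeq2 size factors, total counts and upper-quartile scaling, whereas limma voom put Trim5 at -0.09. With total counts as the scale, Trim12c alone of the cluster did not overlap between groups, where 7.2% of all genes were higher with no overlap. The same was so for the authors' TPM, with 6.36% of all genes.

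**Figure D4:**
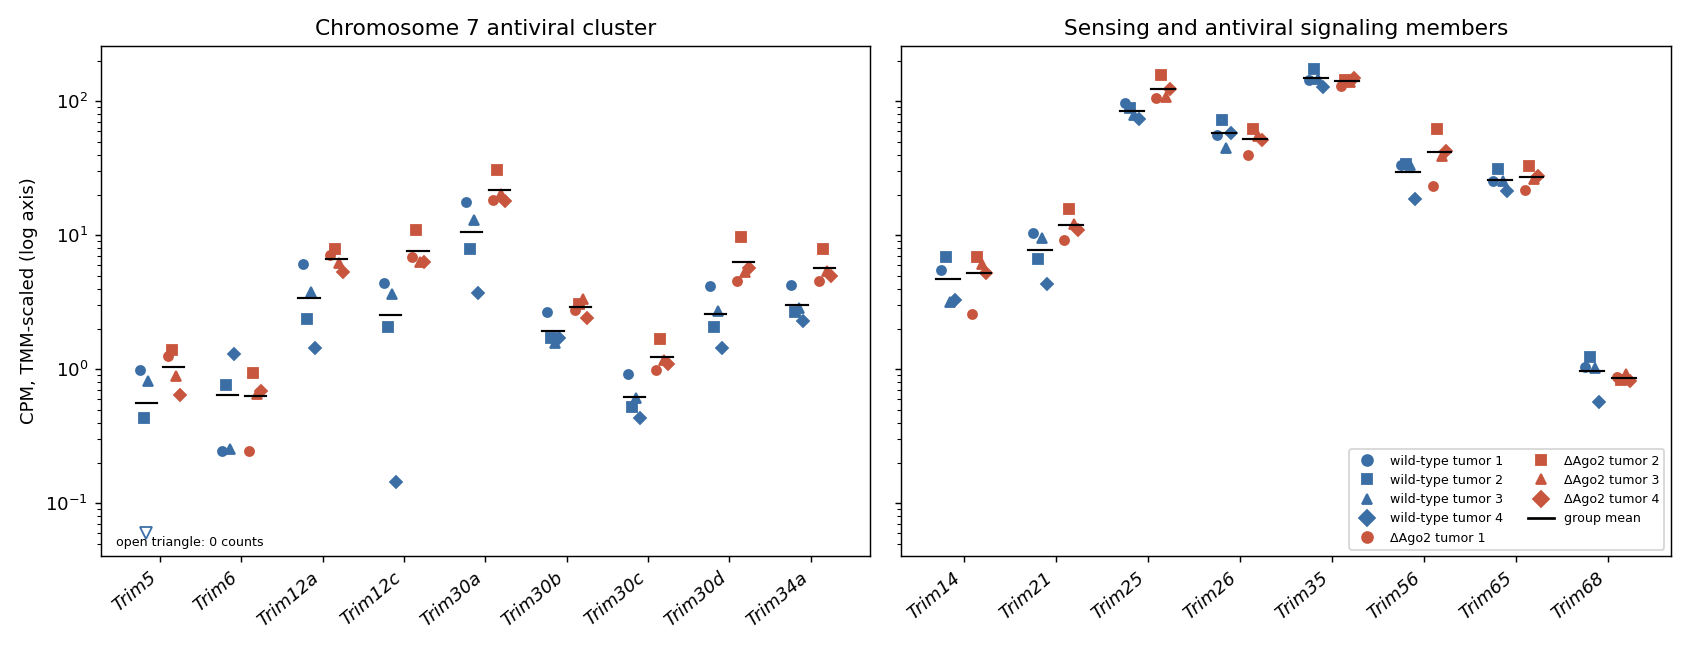
TMM-scaled CPM (log axis) in each of the 8 tumors for the 9 chromosome 7 cluster members (left) and the 8 sensing members (right); blue is wild-type, red is ΔAgo2, symbols number the tumors, bars are group means and an open triangle marks 0 counts. In the cluster the red points sit above the blue ones in Trim12c, Trim30a, Trim30c, Trim30d and Trim34a, and among the sensing members in Trim25 only.

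The sensing and antiviral signaling members outside the cluster were split. Of 8 tested, 5 had positive and 3 negative log2 fold changes with a median of 0.10, and none was called by edgeR. At an unadjusted p under 0.05, 1 was higher, where 13.7% of all genes were. DESeq2 called none (14.2% of all genes) and limma voom 1, Trim25 (27.9%). Trim25 had 96.3, 89.4, 78.9 and 74.1 CPM in wild-type and 105, 156.9, 107 and 123 CPM in ΔAgo2 tumors. Its groups did not overlap, and its log2 fold change was 0.54 ± 0.20 (adjusted p = 0.124 in edgeR, 0.041 in limma voom, 0.070 in DESeq2). After the GC correction it was 0.47.

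Trim21 had 10.3, 6.63, 9.59 and 4.30 CPM in wild-type and 9.27, 15.7, 12.2 and 10.9 CPM in ΔAgo2 tumors. Here ΔAgo2 tumor 1 fell below wild-type tumors 1 and 3, so the groups overlapped (log2 fold change 0.62 ± 0.30, adjusted p = 0.214, edgeR). Trim56, an interferon-induced ligase that acts on STING and cGAS signaling, had a log2 fold change of 0.48 ± 0.31 and ranged from 18.5 to 33.9 CPM in wild-type and from 23.3 to 62.4 CPM in ΔAgo2 tumors. The other 5 lay within 0.22 of 0 on the log2 scale: Trim14, an adaptor of MAVS signaling, at 0.13 ± 0.38, Trim65, which ubiquitinates the RNA sensor MDA5 (Ifih1), at 0.07 ± 0.21, Trim35 at -0.08 ± 0.17, Trim26 at -0.15 ± 0.21 and Trim68 at -0.21 ± 0.34. For Trim14, 29.9% of its 100-base windows occur on the opposite strand in Nans. Trim15, Trim31 and Trim38 were under the count limit with 6, 1 and 16 counts.

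Presence of the response element core can be set beside these differences. Of the 9 tested members with the core, 7 had a positive log2 fold change with a median of 0.90, and of the 27 without it 12 were positive with a median of -0.21. The members with the core were also poorer in GC (median 41.0% of the longest transcript, against 50.6%), and after the GC correction the medians were 0.36 and -0.00065. Trim26 and Trim2 hold the core and had negative values, and 6 of the 9 are neighbors with partly identical windows. The cluster members without the core, Trim6, Trim30b and Trim30c, also had positive values (0.22, 0.58 and 0.93). The split by core is thus largely a split by cluster membership. What part the core, cluster membership or GC content has in these differences was not tested.

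Of the 3 chromatin regulators 2 had positive and 1 a negative log2 fold change. Trim24, a nuclear receptor cofactor and histone reader, had 51.0, 45.8, 38.4 and 24.9 CPM in wild-type and 48.9, 117, 84.2 and 92.0 CPM in ΔAgo2 tumors. Only ΔAgo2 tumor 1 lay within the wild-type range, and the log2 fold change was 1.09 ± 0.30 (adjusted p = 0.067 in edgeR, 0.012 in DESeq2, 0.0056 in limma voom, and 0.069 after the GC correction, where it was 0.97). Trim33, a ligase of the TGF-beta mediator Smad4, was laid out similarly, with 21.3, 13.8, 23 and 6.88 CPM in wild-type and 15.7, 54.9, 29.8 and 46.5 CPM in ΔAgo2 tumors. Its log2 fold change was 1.16 ± 0.43 (adjusted p = 0.128, edgeR), and 0.72 after the GC correction. Their relative Trim66 fell, as given above.

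ΔAgo2 tumor 1 differed from the other ΔAgo2 tumors in more of the family. It had the lowest ΔAgo2 value in 31 of 46 members (67.4%), against 43.2% of all genes tested. Its leukocyte markers differed too, though not all the same way. Its summed T and NK cell markers were 43.1 CPM, against 16 to 20.3 in the other ΔAgo2 tumors and 9.02 to 21.9 in wild-type tumors. Its summed macrophage markers were 3.64e+03 CPM, against 1.69e+03 to 2.02e+03 and 2e+03 to 2.47e+03, with C1qa, C1qb, C1qc, Cd68 and Lyz2 higher than in the other ΔAgo2 tumors while Adgre1, Csf1r and Mrc1 lay within their range. In bulk tumor RNA, fewer cells of a type and less RNA per cell cannot be told apart. What part this tumor's cell makeup has in the members' values was not tested. Without it, a comparison of 4 tumors with 3, 13 members were higher and 6 lower with no overlap between groups, beside 19% and 18.6% of all genes, where all 8 tumors gave 6 higher (13% of 46, against 8.05% of all genes) and 4 lower (8.7%, against 8.36%). The 4 members that were lower with no overlap are the 4 called, and the 6 that were higher are Trim25 and 5 cluster genes.

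Endomembrane and lysosome members included Trim23, which carries an ARF GTPase domain in addition to its RING, at 9.41, 5.86, 10 and 3.87 CPM in wild-type and 6.79, 25.6, 11.8 and 20.2 CPM in ΔAgo2 tumors. Its ΔAgo2 tumor 1 lay among the wild-type values, and its log2 fold change of 1.12 ± 0.43 (adjusted p = 0.132, edgeR) was 0.19 after the GC correction. Trim59 ranged from 10.6 to 41.4 CPM in wild-type and from 37.0 to 57.8 CPM in ΔAgo2 tumors (0.96 ± 0.40, and 0.24 after the GC correction). The endoplasmic reticulum ligase Trim13 (0.53 ± 0.44) and Trim16 (-0.03 ± 0.21), which takes part in the autophagy of damaged lysosomes, were not called either.

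The muscle members followed 1 tumor. Trim72, which reseals torn muscle membranes, had 0.956, 1.72, 11.8 and 2.58 CPM in the wild-type and 0.636, 0.439, 1.31 and 0.837 CPM in the ΔAgo2 group. Its log2 fold change of -2.44 ± 0.74 (adjusted p = 0.087, edgeR) was -1.07 (adjusted p = 0.178) without wild-type tumor 3, and called without wild-type tumor 1 (-2.77, adjusted p = 0.048). The sarcomere-bound Trim54, at 7.02 CPM in wild-type tumor 3 and 0.693 to 1.58 CPM in the other wild-type tumors, changed from -1.82 to -0.52 without that tumor. The atrophy ligase Trim63 (MuRF1) went from -1.47 to 0.37, a turn of sign. Trim55, under the test's filter, had 0.946 CPM in wild-type tumor 3 and at most 0.15 CPM in any other tumor. The tumor with these highs is the one with the high muscle marker sum given above, and all 10 of those markers were highest in it.

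The single epithelial member, Trim29, was lowest in the same tumor. It had 15.2, 20.7, 0.631 and 6.59 CPM in wild-type and 12.2, 11, 26.2 and 22.7 CPM in ΔAgo2 tumors, with a log2 fold change of 0.73 ± 0.72 (adjusted p = 0.525, edgeR), or 0.33 without wild-type tumor 3. The summed CPM of 10 keratinocyte markers was 16.9 in that tumor, 180 to 637 in the other wild-type tumors and 553 to 1.05e+03 in ΔAgo2 tumors, and none of the 10 was at 0 there. What part skin or muscle tissue has in these members' values was not tested.

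Members with NHL repeats, a propeller-shaped end that binds RNA and protein, were all 3 below 0 and none was called. Trim3 was at -0.33 ± 0.22 (edgeR), but at 0.13 after the GC correction, Trim32 at -0.36 ± 0.23 and Trim2 at -0.64 ± 0.33. Trim36, a microtubule-associated ligase, was at 0.89 ± 0.57 with 0 counts in wild-type tumor 4, and its relatives Trim9 and Trim67 were under the count limit with 11 and 53 counts, as were the erythroid members Trim10 and Trim58 with 52 and 2.

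Apart from Trim7 and Trim80, the 11 members without a role list of their own ranged from -0.62 (Trim47) to 0.48 (Trim69), with 3 above 0 and none called by edgeR. They were Trim8, Trim11, Trim27, Trim37, Trim39, Trim41, Trim44, Trim45, Trim47, Trim62 and Trim69. Limma voom called Trim45 lower (-0.42, adjusted p = 0.043). Trim8, a regulator of cytokine signaling, had 119 to 184 CPM in wild-type and 130.5 to 163 CPM in ΔAgo2 tumors, with a log2 fold change of -0.04 ± 0.20 that was 0.56 after the GC correction.

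Levels between genes were compared on the authors' transcripts per 1000000 (TPM), which divide by gene length. Trim47 was the most abundant member in the mean of all tumors, at 155 ± 51.3 TPM (SD, n = 4) in wild-type and 121 ± 8.06 TPM in ΔAgo2 tumors. Trim8 followed with 109.8 ± 20.6 and 127 ± 29.2 TPM, then Trim35 with 85.8 ± 21.6 and 95.2 ± 24.2, Trim27 with 76.2 ± 3.58 and 70.2 ± 2.13, and Trim25 with 39.4 ± 9.55 and 67.8 ± 25.2. Among these named members, in this order, the ranges of mean ± SD of neighbors overlapped within each group, except for Trim27 and Trim25 in wild-type tumors. In ΔAgo2 tumors Trim8 stood before Trim47. The 4 genes that fell were far lower, with Trim46 at 9.44 ± 2.58 TPM in wild-type tumors, Trim7 at 3.95 ± 1.21, Trim80 at 0.718 ± 0.135 and Trim66 at 0.175 ± 0.0451. The cluster members lay between 0.37 (Trim6) and 12.0 TPM (Trim30a) in the mean of all tumors.

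The log2 fold changes of the family followed the GC content of the transcripts. Across the 46 tested members the Spearman correlation of log2 fold change with the GC percentage of the longest transcript was -0.788, and across 15906 genes it was -0.561. This is across genes read in the same 8 libraries, which are not independent replicates. The 24 positive members had a median GC content of 44.1% and the 22 negative ones 52.8%. After the GC correction the correlations were -0.348 and 0.012, 22 of the 24 positive members stayed positive, and 6 of the 22 negative ones became positive. With this correction 2 members, Trim7 and Trim66, were called, both lower, against 3.77% of all genes (2.22% lower and 1.54% higher).

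**Figure D5:**
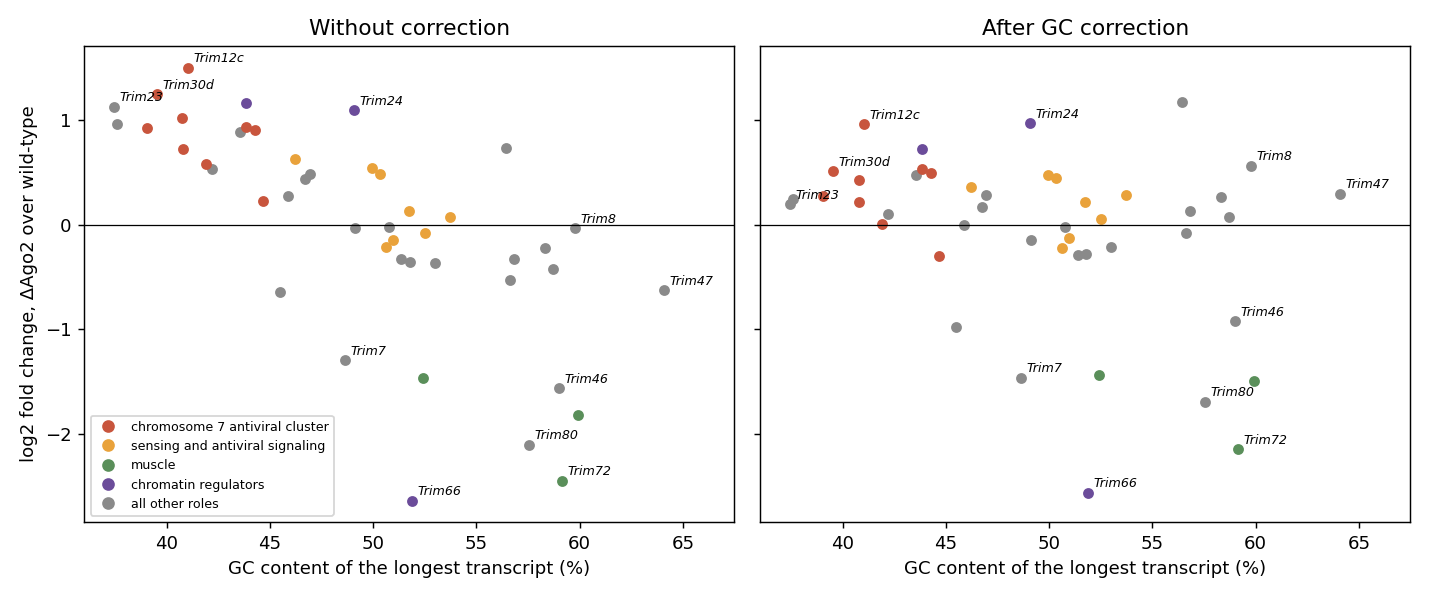
Log2 fold change of ΔAgo2 over wild-type tumors against the GC content of each gene's longest transcript (percent) for the 46 tested TRIM genes, without (left) and with (right) correction for GC content; each point is 1 gene and colors give the role list. On the left the points fall from upper left to lower right (Spearman correlation -0.788), and on the right the fall is less steep (-0.348), with Trim66, Trim72 and Trim80 the lowest points in both.

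The partners of the family in the ubiquitin and sensing pathways were read from fixed lists. None of the 16 genes on the list of ubiquitin, activating (E1) and E2 enzymes was called by edgeR. At an unadjusted p under 0.05, 2 were higher and 1 lower, where 13.7% and 13% of all genes were. Uba1, the main ubiquitin-activating enzyme, had 603, 722, 535 and 668 CPM in wild-type and 328, 331, 459 and 336 CPM in ΔAgo2 tumors. Its groups did not overlap, and the log2 fold change was -0.80 ± 0.20, with adjusted p = 0.058 in edgeR, 0.0497 after the GC correction and 0.0030 in DESeq2. Uba6, the other activating enzyme of ubiquitin, stood at 1.23 ± 0.45 (adjusted p = 0.124, edgeR), and at 0.39 after the GC correction.

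Of 20 TRIM substrates and partners in nucleic acid sensing, 17 had a positive log2 fold change, where 52.5% of all genes did. The median was 0.62, or 0.36 after the GC correction. None was called by edgeR, and 9 had an unadjusted p under 0.05, all higher, where 13.7% of all genes were higher at that p. Ifih1, the RNA sensor MDA5, ranged from 2.87 to 14.4 CPM in wild-type and from 14.1 to 30.6 CPM in ΔAgo2 tumors, an overlap of 1 pair of tumors, and a log2 fold change of 1.38 ± 0.41 (adjusted p = 0.084 in edgeR, 0.014 in DESeq2). At the other end Irf3, the transcription factor downstream of these sensors, was at -0.53 ± 0.26 (adjusted p = 0.218, edgeR). In 4 of the 20 genes (Cgas, Tbk1, Traf6 and Zc3hav1) every ΔAgo2 tumor was above every wild-type tumor (8.05% of all genes), and in 1 (Tmem173, which encodes STING) every one was below (8.36%). Among TRIM genes with other symbols, Mid2 was at 1.03 ± 0.62, Mid1 at -0.03 ± 0.54 and Pml, the organizer of nuclear bodies, at -0.48 ± 0.24 (adjusted p = 0.224, edgeR), and none was called. Over the 39 tested genes of the 3 lists DESeq2 called 5 and limma voom 9, beside 14.2% and 27.9% of all genes.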

How the data were processed

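RNA was read from 8 whole LLC tumors, 4 wild-type and 4 ΔAgo2, with a stranded poly(A) library kit and paired-end sequencing. The authors deposited a table of raw counts per Ensembl gene and a table of TPM values (counts divided by gene length and scaled to 1000000 per library by the authors). Their methods, written for cultured cells, name featureCounts and mm10, and the submitters' processing notes name STAR with no role. The annotation, strand setting and treatment of reads that match several genes are not given in the sources used here. Reads from near-identical TRIM genes could therefore be lost or split.

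Gene names came from GENCODE M21 by identifier (99.29% matched). The counts were fitted with edgeR 4.0.16 in R 4.3.3 (quasi-likelihood test, TMM scaling, filterByExpr, which kept 16061 genes), with Benjamini-Hochberg adjustment over all genes tested and a threshold of 0.05. CPM are TMM-scaled, and log2 fold changes are ΔAgo2 minus wild-type with the default prior count, and their SE is the size of the log2 fold change over the square root of F. Every library was kept in this fit. Alternatives were DESeq2 1.42.0, limma 3.58.1 (voom, and log2(TPM + 1) or log2(TPM + 0.1)), other scalings and filters, a lowess trend on GC content per library as offsets, thinning to 7903288 counts, a replicate block and leaving out each library. Replicates of a group differed by far more than counting noise (chi-square per degree of freedom of 42.9 or more in every pair).

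Depth sets precision: 3 counts were 0.43 CPM in the shallowest library and 0.0105 in the deepest. Genes described singly are Ago2, the interferon-linked members, called members, the 5 highest and 5 lowest fold changes, the 5 highest mean TPM, the most abundant member of each role list, and the extremes of each pathway list. Further members were given values after their values were seen, so that each was accounted for. Pathway genes outside this rule (Cgas, Tbk1, Traf6, Zc3hav1, Tmem173 and Mid1) were also named after their values were seen. The members and lists were chosen with earlier results of these data known. Promoters are RefSeq's for GRCm38.p6, and protein sequences were not used here.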

Additional observations from a re-analysis of the deposited data

Results flagged for a closer look

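In 10 of the 94 groups of 4 tumors (47 members, each in both genotypes) 1 tumor lay so far from the other 3 that its gap, as a share of the group's range, exceeded Dixon's 95% critical value, where chance alone gives about 4.7. Wild-type tumor 3 was the high one for the muscle members Trim54 (7.02 CPM, the others 0.693 to 1.58), Trim55 (0.946 CPM, the others 0 to 0.15), Trim63 (6.37 CPM, the others 0.487 to 0.717) and Trim72 (11.8 CPM, the others 0.956 to 2.58), and it also had the highest summed muscle markers. ΔAgo2 tumor 2 was high for 2 neighbors of the chromosome 7 cluster, Trim12c (10.9 CPM, the others 6.27 to 6.87) and Trim30a (30.6 CPM, the others 18.1 to 20.2). ΔAgo2 tumor 1 was low for Trim3 (34.9 CPM, the others 42.6 to 44.1) and Trim41 (35.6 CPM, the others 48.1 to 50.5). Wild-type tumor 1 was high for Trim30b (2.70 CPM, the others 1.58 to 1.72), and wild-type tumor 4, the shallowest, was low for Trim56 (18.5 CPM, the others 33.5 to 33.9). These values share libraries, and no cause was tested.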

How the results depend on the processing

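The 4 members called by edgeR remained called with DESeq2 size factors, with upper-quartile scaling, without a count filter (6 calls in all), by DESeq2 (10) and by limma voom (12), whereas total counts and the GC correction each gave 2 calls and either TPM fit gave 0. A minimum of 10 counts in every library (35 members tested) and equal depth (37 tested) also gave 2 calls each, Trim7 and Trim46, and left Trim66 and Trim80 untested. For all genes the count of 560 was 983 without a count filter, 2274 by DESeq2, 4476 by limma voom, and 185 and 125 by limma on log2(TPM + 1) and log2(TPM + 0.1), where the median of all genes was 0.185 and 0.268 (0.158 without a count filter, and within 0.10 of 0 under every other scaling). Pathway genes called went from 0 to 2 without a count filter, 1 with the GC correction, 5 by DESeq2 and 9 by limma voom. Members with no overlap between groups numbered 6 in place of 10 with total counts and with TPM, 1 higher and 5 lower in each. Of all genes 7.2% were higher and 7.91% lower with total counts, and 6.36% and 5.34% with TPM. The Ago2 log2 fold change was 0.86 by limma voom, past the threshold (adjusted p = 0.014), and 0.38 to 0.85 when 1 library was left out, past it without ΔAgo2 tumor 1. Leaving out 1 library gave 0 to 7 members called, 11 to 19 members with no overlap, 0 to 4 pathway genes and 88 to 1793 of all genes, with the highest counts without ΔAgo2 tumor 1. The 11 came without wild-type tumor 3, where 12.9% of all genes were higher and 11.3% lower with no overlap. The 19 came without ΔAgo2 tumor 1, where 19% and 18.6% were. The number with no overlap cannot fall below 10 when a library is left out, because the same CPM are compared over fewer tumors. Apart from that, the cause of these shifts was not tested.

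Same-numbered tumors did not deviate together over the genes tested (correlations of -0.236, 0.103, -0.0448 and -0.29). This cannot tell whether they were paired in handling, which the sample names do not state. With a replicate block 0 members and 70 of all genes were called, and with the block and the GC correction 1 member (Trim7), 1 pathway gene and 309 genes.

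Among the members described singly, signs turned only in some that were not called. With the GC correction, and with the block added to it, the log2 fold changes were 0.13 and 0.11 for Trim3, -0.30 and -0.22 for Trim6, 0.56 and 0.57 for Trim8, 0.050 and 0.053 for Trim35, and 0.29 and 0.29 for Trim47. Limma voom gave -0.090 for Trim5 and 0.19 for Trim8. The TPM fits gave 0.20 and 0.20 for Trim8, 0.069 and 0.069 for Trim26, 0.15 and 0.15 for Trim35, and 0.016 and 0.075 for Trim68. Trim8 was at 0.035 with total counts and 0.033 without a count filter, and Trim65 at -0.0043 with upper-quartile scaling. Leaving out 1 library put Trim6 at -0.12 to 0.68, Trim8 at -0.14 to 0.055, Trim14 at -0.051 to 0.37, Trim35 at -0.14 to 0.012 and Trim65 at -0.042 to 0.17.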
